A study of Mus musculus with 2 samples.

Results

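Semaphorins, plexins and neuropilins are a family of guidance ligands and their receptors, described here in the newborn mouse cerebellum. The members were all genes whose symbols name a semaphorin of classes 3 to 7, a plexin of the A, B, C or D subfamily, or a neuropilin. The rule found 31 of the 32285 genes in the count matrices, of which 20 were semaphorins, 9 were plexins and 2 were neuropilins. Nuclear RNA was sequenced from cerebella at postnatal day 1 (P1) in 2 libraries, each made from 12 snap-frozen cerebella pooled before the nuclei were isolated. The control library came from Cre-negative littermates, whose genotype the labels give as Tox3f/f and whose library name allows Tox3f/f or Tox3f/+. The other, labelled cKO, came from Nestin-cre;Tox3f/f mice. Tox3 is a nuclear high mobility group box protein, and f marks an allele flanked by sites that Cre recombinase cuts. Nestin-cre acts in neural progenitors generally, so the granule lineage was not its only target, and no control carried Cre alone. Pooling left 1 library per group, so the libraries were compared with no test, and every interval below is a 95% interval for counting error only, exact Poisson for a level and exact conditional binomial for a ratio.

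Semaphorins are secreted, membrane-spanning or lipid-anchored proteins that mostly repel, and sometimes attract, growing axons and migrating cells. Plexins are their signalling receptors and act on small GTPases inside the cell, while neuropilins bind most class 3 semaphorins and present them to A-type plexins. In the cerebellum, granule neuron progenitors (GNPs) divide in the external granule layer and their daughters, the granule neurons (GN), extend parallel fibres and migrate inwards past Purkinje cells along Bergmann glia, and Sema6a, Plxna2 and Plxnb2 are known for roles in this layer.

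Levels are CPM, the unique molecular identifier (UMI) counts of a gene per 1000000 UMIs of the same nuclei and library, and where a pair of values is given control comes first. After filtering, the control library held 20493455 UMIs in 4667 nuclei (median 3978) and the cKO-labelled library 30169066 UMIs in 6555 nuclei (median 4025), and 9 barcodes occurred in both. Tox3 was at 104 CPM in control and 118 CPM in the cKO-labelled library, a ratio of 1.14 (1.08 to 1.2). These counts are per gene and do not separate the floxed segment, so they check nothing about the deletion. Classes were rebuilt by clustering without the members and named from markers, so they may differ from those of the study. The microglia-like class includes a cluster of 19 and 52 nuclei with Mrc1, Dab2, Stab1, Lyve1 and Cd163 among its leading genes. Macrophages other than microglia may therefore be part of that class. GNP-like nuclei numbered 514 in control and 117 in the cKO-labelled library, or 11% and 1.78% of nuclei, GN-like nuclei 1525 and 1913, and Purkinje cell-like nuclei 292 and 712. Atoh1, the transcription factor that defines GNPs, had 42 and 3 UMIs. A further 1014 and 693 nuclei, with medians of 619 and 575 UMIs, formed 2 unnamed clusters of low depth, each drawn almost wholly from 1 library.

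Each family member had its own distribution over the 9 named classes reported here. Of the 31 members, 29 had at least 50 UMIs over both libraries. The other 2, Sema3b and Sema3g, had 26 and 44 UMIs and are not described further. For 21 of the 29 the same class was highest in both libraries. The highest class exceeded the next one beyond counting error for 16 members in control and 15 in the cKO-labelled library. Matching counts over all genes were not computed, so these counts do not set the members apart from other genes. Levels are compared between classes for 1 gene at a time, because nuclear 3′ counts do not give levels per length between genes.

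**Figure D1:**
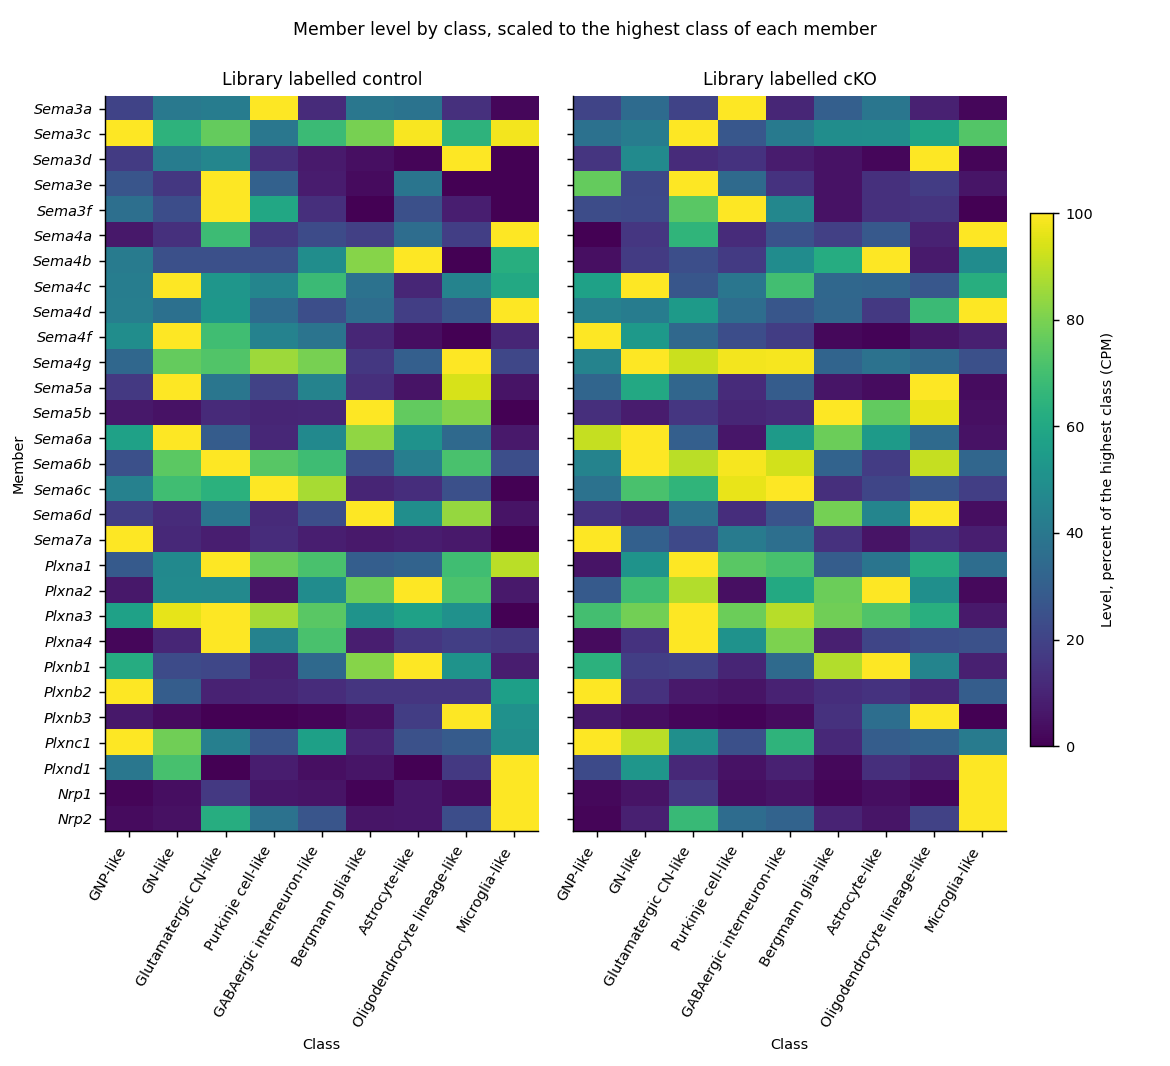
Level of each of the 29 members (vertical axis) in the 9 named classes reported (horizontal axis), in control on the left and in the library labelled cKO on the right, as a percent of the CPM in the highest class of that member and library. Sema7a was highest in GNP-like nuclei in both panels, Sema3a in Purkinje cell-like and Nrp1 in microglia-like nuclei.

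Of the 29 members, Sema7a had the largest gap between its highest and next class in control. Sema7a, a glycosylphosphatidylinositol-anchored semaphorin, was at 209 CPM (189.8 to 229.9) in GNP-like nuclei of control, and the next class, Purkinje cell-like, was at 26.8 CPM, a 7.79-fold difference (6.12 to 10.0). In the cKO-labelled library the same 2 classes led, at 53.8 and 22.3 CPM, 2.41-fold apart. The study named Sema7a among GNP genes from these same libraries, so this is not independent evidence.

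The secreted class 3 semaphorins, which need a neuropilin or Plxnd1 to signal, differed in their highest class. Sema3a, a repellent of axons, was highest in Purkinje cell-like nuclei, at 365 CPM in control and 500.4 CPM in the cKO-labelled library, while glutamatergic cerebellar nuclear neuron-like (CN-like) nuclei, the next class in control, were at 154 CPM. Sema3e, the ligand of Plxnd1, was highest in glutamatergic CN-like nuclei in both libraries, at 31.6 and 39.8 CPM. Sema3f, a ligand of Nrp2, led in glutamatergic CN-like nuclei in control (33.5 CPM) and in Purkinje cell-like nuclei in the cKO-labelled library (20.2 CPM). Sema3d was highest in oligodendrocyte lineage-like nuclei, at 142 and 153 CPM, against 59.3 and 73.1 CPM in GN-like nuclei. Sema3c showed no such class, and its control levels lay between 13.9 CPM in Purkinje cell-like and 35.1 CPM in GNP-like nuclei.

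Of the membrane-spanning semaphorins, the class 6 members Sema6a and Sema6d had their highest levels in different cells. Sema6a, a ligand of Plxna2 and Plxna4, was highest in GN-like nuclei at 1400.4 CPM in control, followed by Bergmann glia-like nuclei at 1170.3 CPM, and lowest in microglia-like nuclei at 97.8 CPM. Sema6d, a ligand of Plxna1, was at 2369 CPM in Bergmann glia-like and 1989.9 CPM in oligodendrocyte lineage-like nuclei of control, in the reverse order in the cKO-labelled library (1794 and 2263 CPM). Both glial classes stood above GN-like nuclei, at 295 CPM in control. For Sema6b and Sema6c the highest control levels were 23.9 CPM in glutamatergic CN-like and 46.6 CPM in Purkinje cell-like nuclei.

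The class 5 semaphorins, which carry thrombospondin repeats, differed in their distribution over neurons and glia. In control Sema5a was about level in GN-like and oligodendrocyte lineage-like nuclei, at 338 and 317 CPM, a ratio of 1.07 (0.882 to 1.30). In the cKO-labelled library Sema5a was highest in oligodendrocyte lineage-like nuclei, at 462 CPM. Sema5b in control was at 393 CPM in Bergmann glia-like, 320.3 CPM in oligodendrocyte lineage-like and 299 CPM in astrocyte-like nuclei. In GN-like nuclei of control it was at 19.8 CPM. The class 4 members had several highest classes. In control Sema4d, the ligand of Plxnb1, led in microglia-like nuclei at 121 CPM, Sema4a there at 46 CPM, Sema4b in astrocyte-like nuclei at 55.2 CPM, and Sema4g in oligodendrocyte lineage-like nuclei at 53.9 CPM. Sema4c and Sema4f led in GN-like nuclei, at 38.1 and 53.7 CPM. The Sema4g lead rested on 19 UMIs, and in the cKO-labelled library Sema4g was highest in GN-like nuclei, at 47.1 CPM.

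The receptors likewise differed in where they were found. Plxnb2, a receptor for Sema4c and Sema4g, was highest in GNP-like nuclei in both libraries, at 255 CPM (234 to 278) in control and 329.9 CPM (278 to 389) in the cKO-labelled library, and microglia-like nuclei came next at 144 and 96.9 CPM. Plxnc1, the plexin that binds Sema7a, was also highest in GNP-like nuclei, at 256 and 211 CPM, with GN-like nuclei next at 200.1 and 189 CPM. Plxna2, a receptor for Sema6a, went the other way in the granule lineage of control, at 27.8 CPM in GNP-like and 202 CPM in GN-like nuclei, and its highest class was astrocyte-like at 423 CPM. Plxna4 was highest in glutamatergic CN-like nuclei at 676 CPM and lowest in GNP-like nuclei at 11.7 CPM. Plxna1 and Plxna3 were both highest in glutamatergic CN-like nuclei at 44.9 and 39.2 CPM.

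For each of the remaining receptors the class with the highest level was glial or microglial. Plxnb1 was highest in astrocyte-like nuclei (71.6 CPM in control, 80.0 CPM in the cKO-labelled library) and Plxnb3, a receptor for Sema5a, in oligodendrocyte lineage-like nuclei (22.7 and 36.1 CPM). Plxnd1 led in microglia-like nuclei on few UMIs (17.3 and 20.8 CPM, 3 and 9 UMIs). Most of its UMIs were in GN-like nuclei, 92 of 138 in control and 90 of 138 in the cKO-labelled library. The co-receptor Nrp1 was at 863 CPM in microglia-like nuclei of control and 867 CPM in the cKO-labelled library, 5.98-fold above glutamatergic CN-like nuclei in control (4.74 to 7.54). Nrp2 led in the same class, at 167 and 168 CPM, 1.6-fold above glutamatergic CN-like nuclei in control (1.02 to 2.43), which were at 104 and 113 CPM. Leads in microglia-like nuclei were not resolved between the clusters of that class.

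The 4 members whose highest control class was GNP-like were Sema7a, Sema3c, Plxnb2 and Plxnc1, and the 250 bases before their starts are shown because the study concerns Atoh1, a basic helix-loop-helix factor of the class that binds E-boxes. Promoter sequences were taken from RefSeq on build GRCm38.p6, where 26 of the 31 members matched. Sema7a starts at chr9:57940112 on the + strand, and its window is chr9:57939862-57940111. The Plxnb2 windows are chr15:89180789-89181038 and chr15:89173952-89174201 on the − strand, the Plxnc1 window is chr10:94944846-94945095 on the − strand, and the Sema3c window is chr5:17574566-17574815 on the + strand. Each sequence reads 5′ to 3′ on the strand of its gene, and capitals mark every CANNTG, the E-box letters, which read alike on both strands.
Sema7a: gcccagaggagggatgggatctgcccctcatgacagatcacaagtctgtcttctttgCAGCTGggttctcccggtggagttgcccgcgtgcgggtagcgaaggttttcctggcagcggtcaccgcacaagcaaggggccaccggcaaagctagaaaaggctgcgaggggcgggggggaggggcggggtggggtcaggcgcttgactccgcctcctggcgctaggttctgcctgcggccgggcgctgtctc
Sema3c: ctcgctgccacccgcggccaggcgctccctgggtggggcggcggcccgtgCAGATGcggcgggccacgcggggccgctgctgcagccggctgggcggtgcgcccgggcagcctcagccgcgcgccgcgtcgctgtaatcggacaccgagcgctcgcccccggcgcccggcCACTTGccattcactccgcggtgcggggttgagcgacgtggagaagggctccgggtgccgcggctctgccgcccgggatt
Plxnc1: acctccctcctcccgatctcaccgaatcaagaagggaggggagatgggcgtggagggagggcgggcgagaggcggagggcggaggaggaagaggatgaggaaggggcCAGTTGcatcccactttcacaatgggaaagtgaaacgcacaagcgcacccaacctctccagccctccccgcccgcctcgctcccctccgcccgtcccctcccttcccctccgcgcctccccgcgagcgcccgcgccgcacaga
Plxnb2, first start: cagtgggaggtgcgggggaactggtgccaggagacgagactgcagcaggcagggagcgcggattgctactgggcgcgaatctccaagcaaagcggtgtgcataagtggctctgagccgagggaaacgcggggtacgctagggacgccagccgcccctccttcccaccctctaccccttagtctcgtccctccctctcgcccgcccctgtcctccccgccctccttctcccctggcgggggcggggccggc
Plxnb2, second start: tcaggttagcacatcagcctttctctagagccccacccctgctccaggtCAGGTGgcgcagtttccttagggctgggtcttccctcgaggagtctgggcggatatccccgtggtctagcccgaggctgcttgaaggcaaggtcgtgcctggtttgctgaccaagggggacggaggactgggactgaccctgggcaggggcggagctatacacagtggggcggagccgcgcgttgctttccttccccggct
The Sema7a window held 1 E-box, CAGCTG, 193 bases before the start. Sema3c held 2, at 200 and 80 bases before its start, Plxnc1 held 1 at 143 bases, and Plxnb2 held 0 at the first start and 1 at 201 bases at the second. That second start lies 3263 bases from the nearest GENCODE start of Plxnb2, whereas the first matches one. E-box letters are common, occurring in 66.2% of all 32851 windows of this length and in 19 of the 37 windows of members (51.4%). CAGCTG occurred in 13.0% of all windows and in 6 of the 37 (16.2%). A match describes the letters only and is not a binding site.

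Over whole libraries, 3 of the 29 members were past 1.5-fold lower in the cKO-labelled library and 2 were past 1.5-fold higher. The background was 5.81% of 17602 genes lower and 5.26% higher, against 10.3% and 6.90% of the members, so the count of members higher was near the background. Sema7a was at 42.2 CPM (39.4 to 45.1) in control and 16.5 CPM (15.1 to 18) in the cKO-labelled library (864 and 497 UMIs), a ratio of 0.391 (0.349 to 0.437). Plxnb2 was at 74.8 and 39.2 CPM (1532 and 1183 UMIs), a ratio of 0.525 (0.486 to 0.566). Sema3c was at 36 and 21.3 CPM (737 and 642 UMIs), a ratio of 0.592 (0.531 to 0.659). The 2 higher members were Plxnb3, on few UMIs, at 1.22 and 2.82 CPM on 25 and 85 UMIs (ratio 2.31, 1.46 to 3.77), and Sema3e, at 6.64 and 11.9 CPM on 136 and 360 UMIs (ratio 1.8, 1.47 to 2.21). The median log2 ratio was 0.11 over the members and -0.02 over all genes.

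The make-up of the libraries moved with several of these ratios, and in whole-library sums fewer nuclei of a type and less RNA per nucleus cannot be told apart. GNP-like nuclei held 429 of the 864 Sema7a UMIs of control (49.7%) and 23 of the 497 in the cKO-labelled library (4.63%). When every class was given the same share of UMIs in both libraries, the Sema7a ratio was 0.545, still past the fold. The same step took Plxnb2 to 0.854, inside the fold, and 34.1% of its UMIs in control against 11.9% in the cKO-labelled library were in GNP-like nuclei. It took Sema3c to 0.70. The unnamed nuclei of low depth held 33.4% of the Sema3c UMIs of control, at 355 CPM, and 15.7% in the cKO-labelled library, at 222 CPM. Without them the Sema3c ratio was 0.734, inside the fold. With equal make-up Plxnb3 stood at 1.84 and Sema3e at 1.7, while thinning each nucleus to 1000 UMIs took Sema3e to 1.12.

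**Figure D2:**
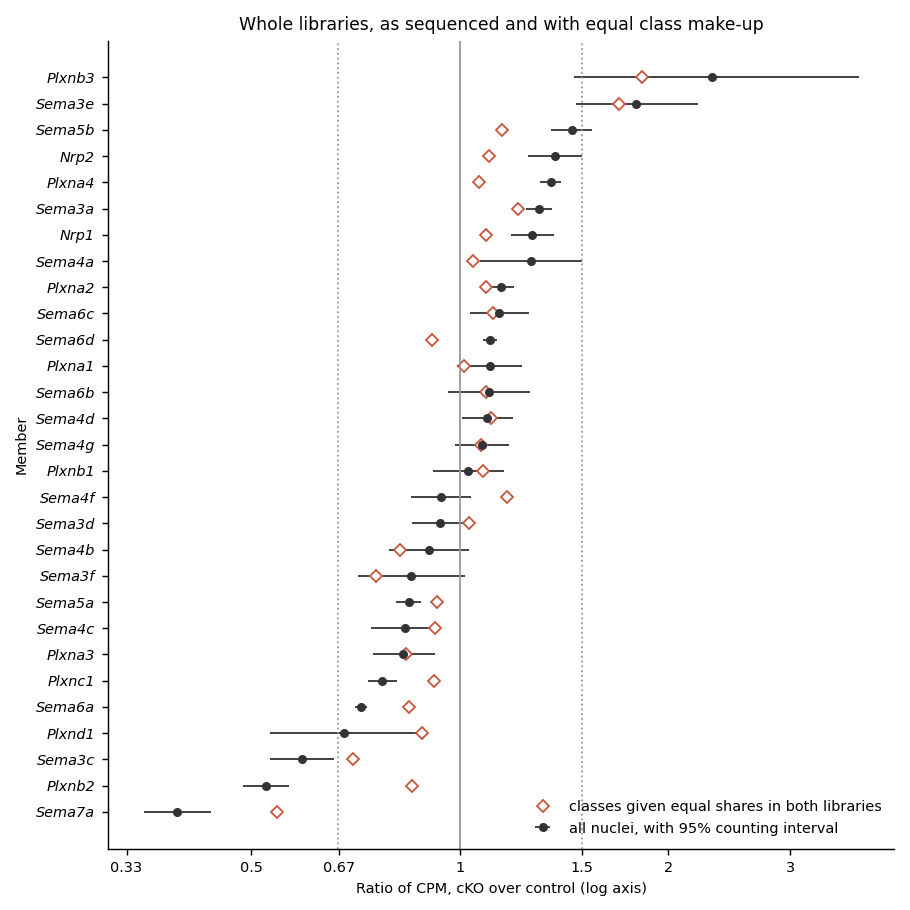
Ratio of CPM, cKO over control, on a log axis for each member (vertical axis), with filled points and bars for all nuclei with 95% counting intervals and open diamonds for classes given equal shares in both libraries. Sema7a lies lowest at 0.391 and at 0.545 with equal make-up, and Plxnb2 moves from 0.525 to 0.854.

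The ligand Sema6a was at 863 CPM in control and 622 CPM in the cKO-labelled library, inside the fold but outside counting error at a ratio of 0.72 (0.706 to 0.735). With equal make-up the ratio was 0.845. Plxnc1 was at 151 and 117 CPM (ratio 0.773, 0.736 to 0.811), and Sema5b at 60.8 and 88.2 CPM (ratio 1.45, 1.36 to 1.55). Sema6d, at 551 and 609 CPM, had a ratio of 1.1 as sequenced and 0.911 with equal make-up, so its direction depended on the make-up.

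Within GNP-like nuclei, the ligand Sema7a was lower in the cKO-labelled library, and the receptor Plxna2 and the ligands Sema4f, Sema5a and Sema5b were higher. Of the 16 members with at least 50 UMIs there, 2 were past 1.5-fold lower and 4 past 1.5-fold higher. Of the classes reported this had the largest share of genes past the fold, a background of 15.7% of 7911 genes lower and 9.19% higher, against 12.5% and 25% of the members. Sema7a was at 209 CPM (189.8 to 229.9) in control and 53.8 CPM (34.1 to 80.8) in the cKO-labelled library (429 and 23 UMIs), a ratio of 0.257 (0.161 to 0.391). Neither interval reached the other. Over 14 alternatives of processing it ranged from 0.131 to 0.311, and was smallest in nuclei chosen for a granule marker and no marker of another lineage (439 and 82 nuclei). Changed UMI minimums, counted among these, cannot alter a ratio, and clustering resolutions of 0.4 and 1.2 returned the same ratio. Sema3c was at 35.1 and 14 CPM on 72 and 6 UMIs, a ratio of 0.40 (0.142 to 0.914), and 0.67 where nuclei were gated singly on their own markers, which ended the call.

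The 4 higher members started from low levels in control. Plxna2 was at 27.8 CPM (21 to 36) in control and 98.3 CPM (70.8 to 133) in the cKO-labelled library (57 and 42 UMIs), a ratio of 3.54 (2.32 to 5.36). Sema4f was at 26.3 and 103 CPM on 54 and 44 UMIs (ratio 3.91, 2.57 to 5.93), and Sema5a at 56.1 and 149.8 CPM on 115 and 64 UMIs (ratio 2.67, 1.94 to 3.66). Sema5b was at 25.3 and 53.8 CPM on 52 and 23 UMIs (ratio 2.12, 1.24 to 3.53). For all 4, which were picked for their ratios in these same counts, the control and cKO intervals of the level did not overlap. Single gating gave 1.19 for Sema5a, inside the fold, and 1.79 for Sema4f. After thinning to 1000 UMIs only Sema5a had enough UMIs to be counted as higher. Plxna2 was then at 4.42 on 22 UMIs and Sema4f at 4.86 on 21 UMIs, under the minimum of 50. In nuclei chosen for a granule marker and no marker of another lineage the ratios were 3.39 for Plxna2, 3.53 for Sema4f, 2.72 for Sema5a and 1.62 for Sema5b.

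Markers of other classes moved with these values in GNP-like nuclei. The summed GNP list (10 genes, 6 of them higher and 4 lower) was at 3349 and 3271 CPM. Atoh1 had 16 and 0 UMIs there, a ratio of 0 whose interval (0 to 1.24) included 1. Barhl1, a homeobox gene of the granule lineage, was at 109 and 6.73 CPM in the first GNP-like cluster (15) and 170.5 and 7.69 CPM in the second (18), and Tox3 in GNP-like nuclei was at 251 and 555 CPM. The GN list (7 genes, 6 of them higher) was at 1841 and 2520.1 CPM. The Purkinje cell list (6 of 11 higher, Skor2 and Lhx5 at 0 in the cKO-labelled library) was at 2322 and 3414 CPM and the astrocyte list (3 of 6 higher, Gfap and Agt at 0) at 303 and 519 CPM. The GABAergic interneuron list (5 of 7 higher, Pax2 at 0) was at 149 and 255 CPM, the Bergmann glia list (4 of 6 higher, Hes5 at 0) at 444 and 604 CPM, and the oligodendrocyte list (3 of 7 higher, Olig1 and Cspg4 at 0) at 156 and 206 CPM. Their part in the higher members was not tested.

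The other GNP-like members were inside the fold. Plxnb2 was at 255 and 329.9 CPM (ratio 1.29, 1.07 to 1.56), higher within these nuclei of the cKO-labelled library although lower over the whole library. Sema6a was at 803 and 1041 CPM (ratio 1.3, 1.17 to 1.44), and Sema6d at 432 and 332 CPM (ratio 0.769, 0.64 to 0.919). The intervals of Plxnc1 at 256 and 211 CPM (ratio 0.823, 0.651 to 1.03) and of Sema3a at 73.1 and 103 CPM (ratio 1.41, 0.982 to 1.98) included 1. Plxnb1, at 44.4 and 51.5 CPM, and Sema4d, at 51.7 and 53.8 CPM, were close. Of those under 50 UMIs, Sema4b had 47 and 1 UMIs (ratio 0.102, 0.00253 to 0.598), Plxna1 26 and 1 UMIs (ratio 0.185, 0.0045 to 1.12) and Sema3e 17 and 13 UMIs (ratio 3.67, 1.64 to 8.03).

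**Figure D3:**
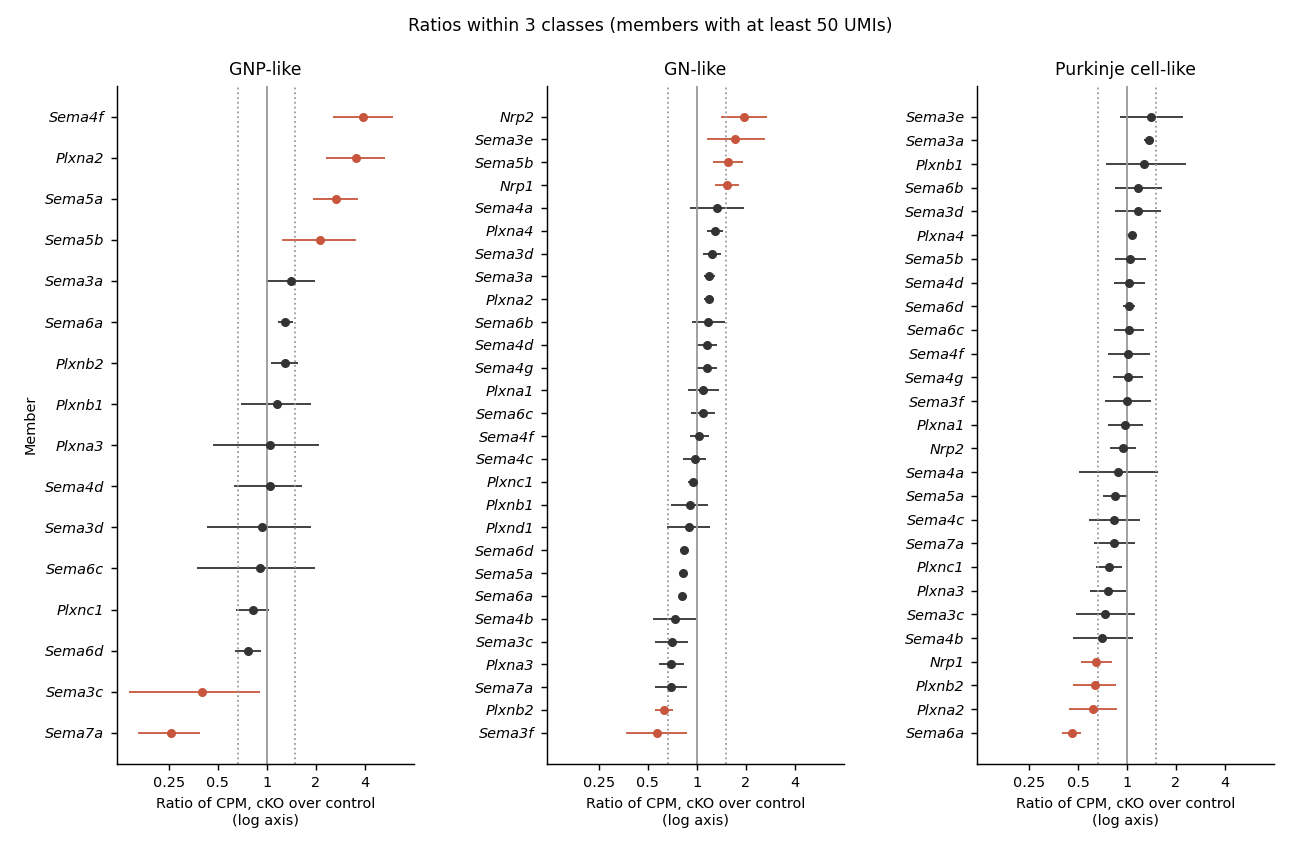
Ratio of CPM, cKO over control, on a log axis for the members with at least 50 UMIs (vertical axes) in GNP-like, GN-like and Purkinje cell-like nuclei, with 95% counting intervals as bars. Dotted lines mark 1.5-fold either way and red marks members past it, which were Sema4f, Plxna2, Sema5a, Sema5b, Sema3c and Sema7a in GNP-like nuclei.

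The granule lineage was made of 6 clusters, 2 GNP-like (15 and 18) and 4 GN-like (8, 5, 0 and 2). Clusters 15 and 18 held 265 and 249 nuclei in control and 71 and 46 in the cKO-labelled library, and cluster 15 was the mitotic one, with Mki67, a marker of dividing cells, at 581 CPM in control against 81.1 CPM in cluster 18. Cntn2, an adhesion molecule of newborn granule neurons, was highest in clusters 8 and 5, at 331 and 193 CPM in control. Etv1, a factor of more mature ones, was at 81.2 CPM in cluster 0 and 61.1 CPM in cluster 2, above the other GN-like clusters. GNP-like cluster 18 also had Etv1 at 63.5 CPM. Rbfox3, another GN marker, was at 559 CPM in cluster 2, below clusters 8 (720 CPM), 5 (752 CPM) and 0 (949 CPM). These markers do not settle an order of the GN-like clusters. Sema7a was lower in the cKO-labelled library in all 6 clusters. In control it was at 173 CPM in cluster 15 and 259.8 CPM in cluster 18, against 53.8 CPM in both in the cKO-labelled library, and in the GN-like clusters it lay between 13.8 and 48 CPM in control and between 8.69 and 29.5 CPM in the cKO-labelled library.

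Plxnb2 differed from Sema7a across these clusters. Its level, control first, was 282 and 306 CPM in cluster 15, 216 and 384 CPM in cluster 18 and 260.3 and 171 CPM in cluster 8. The cKO-labelled library was thus higher in both GNP-like clusters and lower in cluster 8. In clusters 5, 0 and 2 Plxnb2 was at 74.2, 35.8 and 69.3 CPM in control and 48.7, 27 and 46.2 CPM in the cKO-labelled library. Plxnc1 was present in all 6 clusters, at levels between 143 and 286 CPM in control and 158 and 256 CPM in the cKO-labelled library.

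For the receptor of Sema6a, Plxna2, levels in control went from 29.1 and 25.9 CPM in the GNP-like clusters to 51.6 CPM in cluster 8, 269 CPM in cluster 5, 143 CPM in cluster 0 and 337 CPM in cluster 2. The matching levels in the cKO-labelled library were 108, 76.9, 126, 425, 178 and 277 CPM, higher in all but cluster 2. Sema6a itself was highest in clusters 8 and 5, at 2163 and 2429 CPM in control and 2008 and 2114 CPM in the cKO-labelled library. It was higher in the cKO-labelled library in the GNP-like clusters (737 against 925 CPM, and 896 against 1307 CPM) and lower in each GN-like cluster, down to 911 and 577 CPM in cluster 2. Sema5a was at 64.1 and 44.7 CPM in the GNP-like clusters of control and 141 and 169 CPM in the cKO-labelled library, and was highest in cluster 0, at 501 and 401 CPM. Sema4f was at 21.2 and 61.5 CPM in cluster 18, and in the GN-like clusters between 50.8 and 63.7 CPM in control and between 43.9 and 80.2 CPM in the cKO-labelled library. Within the lineage Sema6d was highest in cluster 8, at 802 and 652 CPM.

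**Figure D4:**
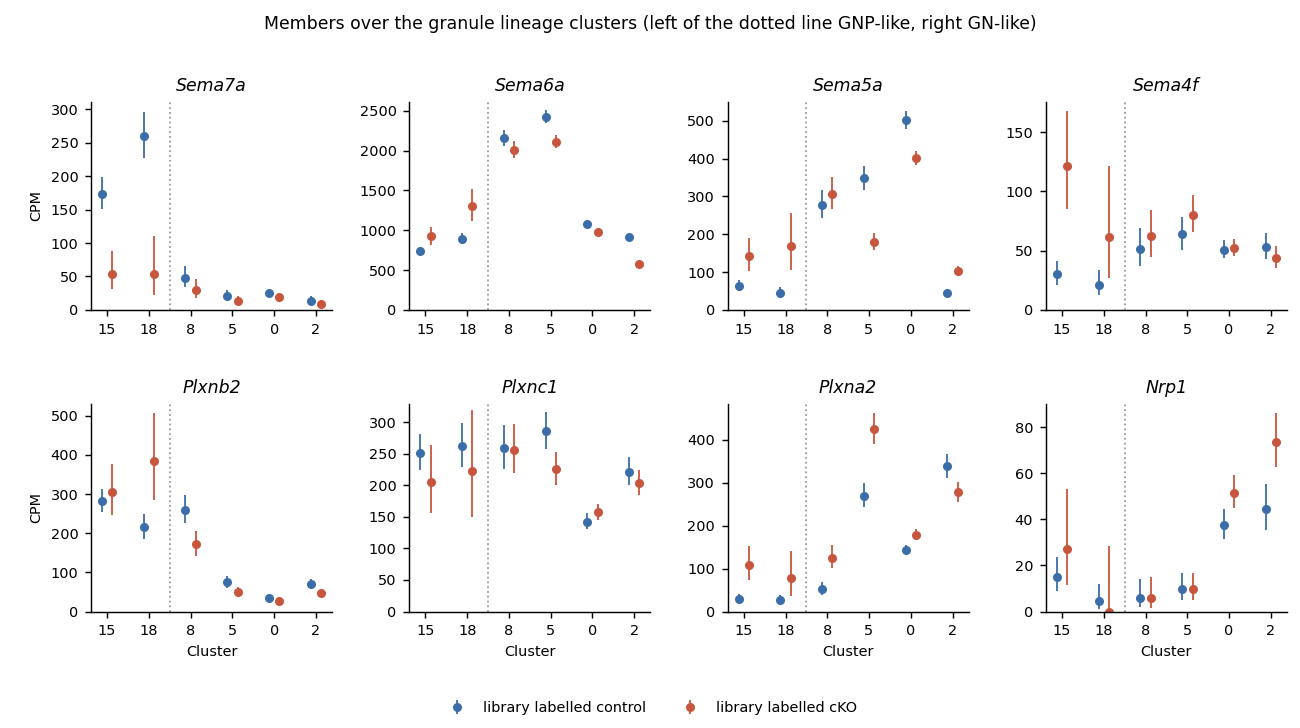
CPM of 8 members (vertical axes) in the 6 granule lineage clusters (horizontal axis), GNP-like left and GN-like right of the dotted line, with 95% counting intervals as bars and 1 colour per library. Sema7a in clusters 15 and 18 is at 173 and 259.8 CPM in control and at 53.8 CPM in both in the library labelled cKO.

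In GN-like nuclei, the receptor Plxnb2 and the ligand Sema3f were lower in the cKO-labelled library, and both neuropilins were higher together with Sema3e and Sema5b. That made 2 of 28 members lower and 4 of 28 higher, against a background of 3.87% of 13147 genes lower and 3.08% higher. Plxnb2 was at 75.7 CPM in control and 47.4 CPM in the cKO-labelled library (568 and 392 UMIs), a ratio of 0.627 (0.55 to 0.714), and between 0.597 and 0.756 over the alternatives. Its ratio was inside the fold after thinning (0.748), in singly gated nuclei (0.689) and in cluster 0. Sema3f was at 7.86 and 4.48 CPM on 59 and 37 UMIs (ratio 0.569, 0.367 to 0.873). It too came inside the fold, at 0.672 at a clustering resolution of 0.4, 0.697 with members in the clustering and 0.82 in cluster 0.

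The co-receptor Nrp1 was at 30.8 CPM in control and 46.9 CPM in the cKO-labelled library (231 and 388 UMIs), a ratio of 1.53 (1.29 to 1.8). In cluster 2 it was at 44.6 and 73.6 CPM, in cluster 0 at 37.5 and 51.6 CPM, and in cluster 5 its ratio was 1.0. Nrp2, which binds Sema3f, was at 7.73 and 15 CPM on 58 and 124 UMIs (ratio 1.94, 1.41 to 2.7). In cluster 2 Nrp2 was at 7.71 and 28.4 CPM (ratio 3.68, 2.04 to 7.12), whereas cluster 0 was at 7.1 and 5.9 CPM, in the other direction. Over the 4 other clusterings tried the Nrp1 ratio lay between 1.38 and 1.43, inside the fold, and the Nrp2 ratio between 1.26 and 1.52. With doublets kept they were 1.36 and 1.45, and in singly gated nuclei 1.29 and 1.2.

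Among the ligands, Sema3e was at 5.06 and 8.71 CPM on 38 and 72 UMIs (ratio 1.72, 1.15 to 2.62), with the highest single-cluster ratio in cluster 8, at 3.6 and 25.1 CPM, and a ratio of 0.982 in cluster 2. Sema5b was at 19.8 and 30.7 CPM on 149 and 254 UMIs (ratio 1.55, 1.26 to 1.91), and its ratio in single clusters lay between 1.33 and 1.68. It was between 1.36 and 1.48, inside the fold, in 6 other alternatives, which were doublets kept, thinning, a clustering resolution of 0.4, libraries merged without integration, members in the clustering and single gating. Inside the fold, Sema6a was at 1400.4 and 1141 CPM (ratio 0.815, 0.793 to 0.838), Sema5a at 338 and 278 CPM (0.823) and Sema6d at 295 and 246 CPM (0.834). Sema7a was at 24 and 16.6 CPM (ratio 0.691, 0.549 to 0.868). Of the A-type plexins, Plxna3 was lower (37.7 and 26.2 CPM, ratio 0.696, 0.581 to 0.834) and Plxna4 higher (71.9 and 92.5 CPM, ratio 1.29, 1.15 to 1.44) in the cKO-labelled library, both inside the fold.

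Marker lists also differed between the GN-like nuclei of the libraries. The GNP list was lower for 9 of 10 genes, at 771 and 605 CPM, with Atoh1 at 0 in the cKO-labelled library, while the GN list (4 of 7 higher) was at 2211 and 2247 CPM. The Purkinje cell list (10 of 11 higher) was at 1353 and 1596 CPM, the GABAergic interneuron list (5 of 7 higher) at 111 and 150 CPM, the Bergmann glia list (5 of 6 higher) at 321 and 397 CPM and the astrocyte list (4 of 6 higher) at 80.1 and 108 CPM, with no marker of these at 0. Their part in the GN-like values was not tested.

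In Purkinje cell-like nuclei, Sema6a, Nrp1, Plxna2 and Plxnb2 were past 1.5-fold lower in the cKO-labelled library and no member was past it higher, so 4 and 0 of 27 members were counted against a background of 4.4% of 11810 genes lower and 2.35% higher. Sema6a was at 154 CPM (140.4 to 169) in control and 70.4 CPM (63.8 to 77.5) in the cKO-labelled library (454 and 419 UMIs), a ratio of 0.456 (0.399 to 0.522). Nrp1 was at 51.6 and 33.4 CPM on 152 and 199 UMIs (ratio 0.647, 0.521 to 0.805). Plxna2 was at 22.4 and 13.8 CPM on 66 and 82 UMIs (ratio 0.614, 0.439 to 0.863), its lowest class in control, and Plxnb2 at 26.8 and 17 CPM on 79 and 101 UMIs (ratio 0.632, 0.466 to 0.859). Where nuclei were gated singly, which took in 1115 and 2157 nuclei, Sema6a stood at 0.756, inside the fold, Nrp1 at 1.09 and Plxna2 at 1.02, in the other direction, and Plxnb2 at 0.606. With doublets kept Nrp1 was at 0.715 and Plxna2 at 0.917, inside the fold, and thinning took Nrp1 to 0.946.

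Granule lineage markers moved with these 4 in Purkinje cell-like nuclei. The GN marker list was lower for all 7 genes, at 293 CPM in control and 161 CPM in the cKO-labelled library (ratio 0.549, 0.50 to 0.602), with none at 0. The GNP list was lower for all 10 genes, at 349 and 249 CPM, with Atoh1 at 0 in the cKO-labelled library, while the Purkinje cell list was level at 28650.4 and 28561 CPM. In microglia-like nuclei, the lowest class for Sema6a, that gene was at 97.8 and 55.3 CPM (ratio 0.566, 0.291 to 1.12). RNA shared between droplets was not removed, and its part in these 4 values was not tested. Sema3a, the member with its highest level here, was at 365 CPM (343 to 387) and 500.4 CPM (483 to 519), a ratio of 1.37 (1.28 to 1.47), inside the fold but outside counting error. Plxna4 was at 299.7 and 319.7 CPM (1.07).

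Glutamatergic CN-like nuclei, named for neurons of the deep cerebellar nuclei, had 4 of 27 members lower (background 4.71% of 9219 genes) and 1 higher (5.89%). The ligands Sema3d (65 and 19.1 CPM, 68 and 56 UMIs, ratio 0.293, 0.202 to 0.424), Sema3a (154 and 101 CPM, ratio 0.655, 0.539 to 0.798), Sema3f (33.5 and 15 CPM, ratio 0.448, 0.281 to 0.719) and Sema4c (20.1 and 9.88 CPM, ratio 0.492, 0.271 to 0.907) were lower in the cKO-labelled library. Plxna2 was at 199.8 and 308 CPM (ratio 1.54, 1.32 to 1.8), but 1.17 after thinning and 0.884 in singly gated nuclei. The GABAergic interneuron-like class included a cluster of 161 and 356 nuclei with Mki67 at 191 and 168 CPM, so it may hold dividing nuclei too. In GABAergic interneuron-like nuclei 1 of 26 members was lower (background 2.69% of 11802 genes) and 1 higher (2.64%), both on few UMIs. Sema3c was at 23.9 and 15.5 CPM (ratio 0.649, 0.468 to 0.902) and Sema3f at 4.57 and 9.3 CPM on 13 and 54 UMIs (ratio 2.04, 1.1 to 4.07), and the Sema3f ratio was 1.27 when the libraries were merged without integration and 1.32 at a clustering resolution of 1.2, inside the fold. That resolution also took Sema3c to 0.68.

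Between 7 and 14 members had at least 50 UMIs in each glial class. Bergmann glia-like nuclei had 2 of 14 lower (background 4.16% of 8743 genes) and 0 higher (5.54%). Sema5a was at 46.2 and 25.6 CPM (ratio 0.555, 0.369 to 0.836) and Sema3c at 27.9 and 18.5 CPM (ratio 0.663, 0.40 to 1.11), with an interval that included 1. Each was inside the fold in 4 of 10 alternatives, which include changed UMI minimums that cannot alter a ratio. Sema5a was then between 0.672 and 0.715, with doublets kept, libraries merged without integration, members in the clustering or single gating. Sema3c was between 0.672 and 0.697, with doublets kept, libraries merged, a resolution of 1.2 or other size factors. Astrocyte-like nuclei had 1 of 11 lower (background 5.08% of 5889 genes) and 0 higher (6.5%), namely Nrp1 at 53.2 and 30.7 CPM on 26 and 33 UMIs (ratio 0.577, 0.335 to 1.0). In oligodendrocyte lineage-like nuclei 1 of 11 was lower (background 6.9% of 5047 genes) and 1 higher (8.76%). The lower one, Plxna2, was at 303 and 174 CPM (ratio 0.573, 0.447 to 0.736), but at 1.03 after thinning and 1.06 in singly gated nuclei. Sema4d, a ligand of Plxnb1 found on oligodendrocytes, was at 31.2 and 83.3 CPM on 11 and 83 UMIs (ratio 2.67, 1.42 to 5.56). Microglia-like nuclei, few in number, had 1 of 7 lower (background 5.88% of 2957 genes) and 0 higher (8.66%), Sema6d at 127 and 83 CPM on 22 and 36 UMIs (ratio 0.656, 0.375 to 1.17), a ratio that was 0.923 with doublets kept and turned direction after thinning (1.03).

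**Figure D5:**
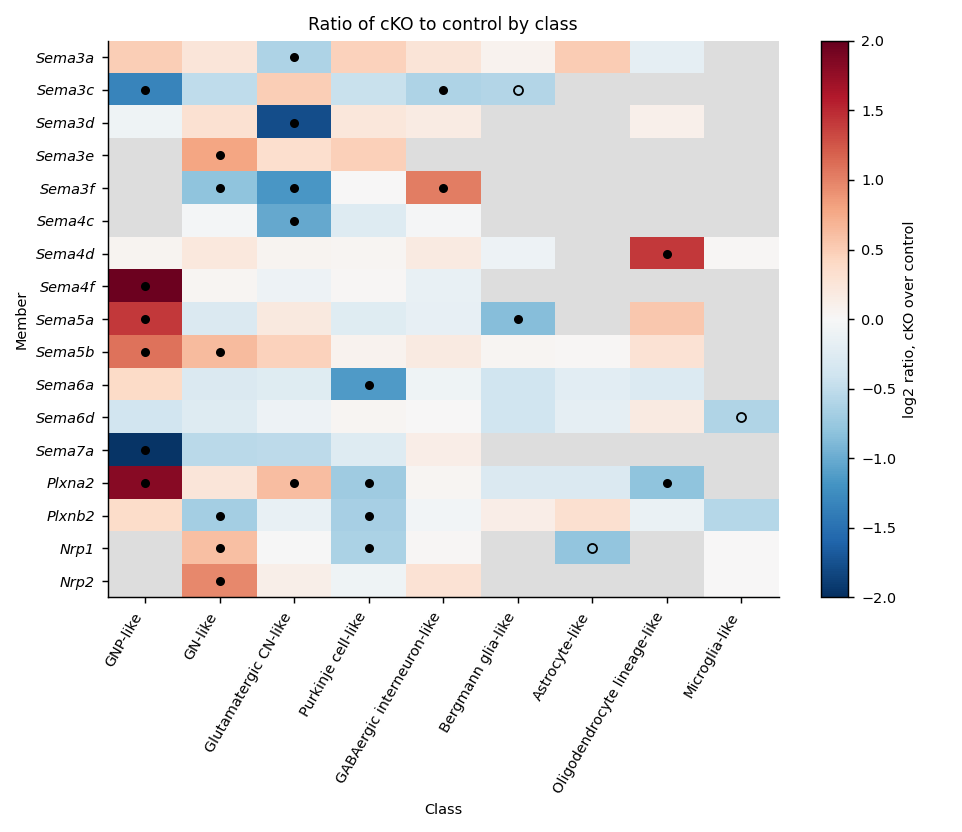
log2 ratio of CPM, cKO over control, for the 17 members past 1.5-fold in at least 1 class (vertical axis) in each class (horizontal axis), with grey where a member had fewer than 50 UMIs. Filled circles mark ratios past 1.5-fold whose 95% counting interval excludes 1 and open circles those whose interval includes it. Plxna2 is higher in GNP-like nuclei (3.54) and lower in oligodendrocyte lineage-like nuclei (0.573).

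Known ligand and receptor partners were compared by their highest class. Of 19 pairs, 2 shared it in control and 2 in the cKO-labelled library, and several genes recur across the pairs. The share among other pairs of genes was not computed, so these counts say nothing particular to partners. Sema7a and its receptor Plxnc1 were both highest in GNP-like nuclei in both libraries, at 209 and 256 CPM in control and 53.8 and 211 CPM in the cKO-labelled library. The integrin subunit Itgb1, the other Sema7a receptor, was at 204 and 241 CPM in GNP-like nuclei and highest in microglia-like nuclei, at 386 and 452 CPM. Sema3f and Plxna3 shared glutamatergic CN-like nuclei in control, and Sema5a and Plxnb3 shared oligodendrocyte lineage-like nuclei in the cKO-labelled library. Sema3a and Nrp1, by contrast, were highest in Purkinje cell-like and microglia-like nuclei.

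The other genes of the pathway, a list of 39 effectors and co-receptors, were counted in the same way. Over whole libraries 1 of the 36 with at least 50 UMIs was lower and 0 were higher, where the background over all genes was 5.81% and 5.26%. It was Rnd2, a small GTPase that binds plexins, at 12.8 and 7.26 CPM (ratio 0.568, 0.472 to 0.682). In GNP-like nuclei (background 15.7% lower and 9.19% higher) 2 of 21 were lower, Mical2, an actin-oxidizing enzyme (40.9 and 23.4 CPM, ratio 0.571, 0.264 to 1.1), and Rnd2 (48 and 3 UMIs, ratio 0.30, 0.0598 to 0.931), and 1 was higher, Farp1, a guanine nucleotide exchange factor that binds A-type plexins (136 and 208 CPM, ratio 1.53, 1.19 to 1.95). In GN-like nuclei 3 of 26 were lower and 0 higher (background 3.87% and 3.08%). Cdk5, a kinase in Sema3a signalling, was at 15.9 and 10.2 CPM (ratio 0.641, 0.479 to 0.855), Rnd2 at 10.9 and 5.93 CPM (ratio 0.543, 0.373 to 0.782), and the integrin subunit Itga1 at 5.46 and 3.63 CPM (ratio 0.664, 0.401 to 1.09). In Purkinje cell-like nuclei 0 of 24 were past the fold either way (background 4.4% and 2.35%), and in Bergmann glia-like nuclei 0 of 18 (4.16% and 5.54%). In the 5 other classes reported, 1 of 20 was lower and 1 higher in astrocyte-like nuclei (5.08% and 6.5%), 1 of 25 lower and 0 higher in GABAergic interneuron-like nuclei (2.69% and 2.64%), 0 of 22 lower and 1 higher in glutamatergic CN-like nuclei (4.71% and 5.89%), 1 of 13 lower and 1 higher in microglia-like nuclei (5.88% and 8.66%), and 1 of 18 lower and 2 higher in oligodendrocyte lineage-like nuclei (6.9% and 8.76%).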

How the data were processed

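The authors sequenced 10x Genomics 3′ v3.1 nuclear libraries and made UMI count matrices with bcl2fastq and Cell Ranger 7.0.1 on mm10, per the labels. Whether intronic reads were counted is not given in the sources used here, and nuclear 3′ counts follow intron content and the 3′ end. The deposited counts (4857 and 6946 barcodes, 32285 genes) were used as filtered, unnormalized UMIs. Barcodes above 25% mitochondrial UMIs (1 and 5) were removed, and so were 189 and 386 putative doublets, the highest Scrublet scores (scanpy 1.11.5) at 0.8% of barcodes per 1000 barcodes, or 3.89% and 5.56%. Free RNA was not corrected, since empty droplets were not used here.

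Nuclei were integrated with Seurat 5.3.0 in R 4.3.3 (3000 features, 30 dimensions) and clustered (20 dimensions, resolution 0.8) with the members and pathway genes left out of the features. Of 23 clusters, 20 were named "-like" from marker lists, needing at least 3 markers in 10% of nuclei at 2-fold over the median of other clusters. The results of 1 named class are not reported here. Nuclei with 2 or more fibroblast or mural markers (14 and 32) were set aside, a rule chosen after seeing the data.

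UMIs were summed per class and library and expressed as CPM. With 1 library per group no test was possible, and a member was called at 1.5-fold on at least 50 UMIs, against the share of all genes so called (Python 3.11.15, numpy 2.4.6, scipy 1.17.1, matplotlib 3.10.9). Levels are given by class for members with at least 50 UMIs, values in both libraries for members past the fold, and pathway genes are named past the fold in GNP-like or GN-like nuclei. Rnd2, the one pathway gene past it over whole libraries, also meets that rule. The members and lists were chosen with earlier results of these data known. The calling step was tested on simulated data. Alternatives were other size factors and UMI minimums, doublets kept, thinning, equal class make-up, other clusterings, single-nucleus gating and single clusters. Gene starts and promoters came from GENCODE M21 and RefSeq on GRCm38.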

Additional observations from a re-analysis of the deposited data

Results flagged for a closer look

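Some members were past 1.5-fold lower in one class and past 1.5-fold higher in another. With 1 library per group, none of these differences between classes was tested. Plxna2, a receptor for Sema6a, had ratios of cKO over control of 3.54 (2.32 to 5.36) in GNP-like and 1.54 (1.32 to 1.8) in glutamatergic CN-like nuclei, and of 0.614 (0.439 to 0.863) in Purkinje cell-like and 0.573 (0.447 to 0.736) in oligodendrocyte lineage-like nuclei. The co-receptor Nrp1 was at 1.53 (1.29 to 1.8) in GN-like and 0.647 (0.521 to 0.805) in Purkinje cell-like nuclei. The secreted ligand Sema3f was at 0.569 (0.367 to 0.873) in GN-like and 0.448 (0.281 to 0.719) in glutamatergic CN-like nuclei, and at 2.04 (1.1 to 4.07) in GABAergic interneuron-like nuclei. The membrane ligand Sema5a was at 2.67 (1.94 to 3.66) in GNP-like and 0.555 (0.369 to 0.836) in Bergmann glia-like nuclei. Members were listed here only where these intervals excluded 1 in both directions, so the bounds lay on opposite sides of 1 by rule. The intervals cover counting error only. The Plxna2 ratios outside GNP-like nuclei and the Nrp1 ratio in Purkinje cell-like nuclei changed direction under other processing, whereas the Plxna2 ratio in GNP-like nuclei stayed above 1 in all 14 alternatives run. Others came inside the fold in the same direction. The Sema5a ratio in Bergmann glia-like nuclei was between 0.672 and 0.715 in 4 of 10 alternatives, and in GNP-like nuclei it was 1.19 when nuclei were gated singly. Nrp1 in GN-like nuclei was between 1.0 and 1.43 in 8 of 14. Sema3f in GN-like nuclei was between 0.672 and 0.82 in 3 of 12, and in GABAergic interneuron-like nuclei at 1.27 and 1.32 in 2 of 10. Each number of alternatives includes changed UMI minimums, which cannot alter a ratio.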

How the results depend on the processing

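No paired analysis was possible because each group was 1 library. Of 102 recomputed counts of members, 79 were within 1.5 times the value given and 23 were not. The count of members with the same highest class in both libraries (21 of 29) lay between 19 and 22. In GNP-like nuclei the count lower (2) was 5 with a minimum of 20 UMIs, 8 with none and 1 in cluster 15 alone, and the count higher (4) was 7, 9 and, after thinning, 1, since fewer members then had 50 UMIs. In Purkinje cell-like nuclei the count lower (4) was 2 with doublets kept and 2 after thinning, and the count higher (0) was 1 with no minimum, 1 with doublets kept and 1 in singly gated nuclei. In GN-like nuclei the count higher (4) was 2 with doublets kept, at resolution 0.4, with libraries merged without integration or with members in the clustering, and 1 when gated singly or in cluster 0 alone. The count lower there (2) was 1 after thinning, at resolution 0.4, with members in the clustering and in cluster 0, and 5 in cluster 2. Over whole libraries the count lower (3) was 1 with equal class make-up.

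Of 374 recomputed ratios of 34 calls, 336 stayed within the counting interval of the value given, 30 moved outside it in the same direction and 8 reversed. The 336 include the ratios under changed UMI minimums, which cannot alter a ratio and so match by rule. In GNP-like nuclei, resolutions of 0.4 and 1.2 each gave 514 and 117 nuclei and the same ratios as given. Reversed were Plxna2 in oligodendrocyte lineage-like (1.03 thinned, 1.06 gated), glutamatergic CN-like (0.884 gated) and Purkinje cell-like nuclei (1.02 gated), Nrp1 in Purkinje cell-like nuclei (1.09 gated), Sema6d in microglia-like nuclei (1.03 thinned), Nrp2 in GN-like cluster 0 (0.831) and Sema3e in GN-like cluster 2 (0.982). Beyond the counts set by the UMI minimum and by thinning the cause was not tested. Ratios under 20 UMIs were not recomputed. The single GN-like clusters, the nuclei with fibroblast markers left in and the removal of low-depth nuclei were chosen after seeing the data. Gating singly kept the control highest class of 16 of the 29 members. With 117 GNP-like nuclei in the library labelled cKO and 1 library per group, animal-to-animal spread is unknown.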

Other observations

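Some nuclei that no named class holds also carried members. In the unnamed cluster of 54 control nuclei and 98 in the library labelled cKO, Sema6d was at 1301 and 1279 CPM, Plxna4 at 629.8 and 663 CPM and Sema6a at 412 and 433 CPM, and these 3 genes were chosen after their values were seen. In the unnamed nuclei of low depth, Sema7a was at 76.4 and 13.2 CPM (53 and 6 UMIs), Plxnb2 at 131 and 57.2 CPM and Sema3c at 355 and 222 CPM, whereas no named class had Sema3c above 35.1 CPM in control or 37.8 CPM in the library labelled cKO. The 14 and 32 nuclei set aside for fibroblast or mural markers had Sema3a at 494 and 408 CPM (32 and 72 UMIs), and the control interval, 338 to 698 CPM, included the Purkinje cell-like level of control, 365 CPM.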
